A study of Mus musculus with 4 samples.

Results

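The SR proteins, the heterogeneous nuclear ribonucleoproteins (hnRNPs) and the CLK kinases were followed at the mRNA level in livers of mice labelled as knockout or control for O-GlcNAc transferase (OGT). Members were all genes in the deposited table whose symbol begins with Srsf and a digit or with Hnrn, or is Clk1, Clk2, Clk3 or Clk4. This gave 34 of 13903 genes, made up of 10 SR genes, 20 hnRNP genes and 4 CLK genes. All 34 had a mean of at least 10 CPM (reads scaled to 1000000 on the listed genes in each library) over the 4 libraries, the filter that 8963 genes passed. All groups were OGT-floxed C57BL/6J mice on a CDE diet, which lacks choline, contains ethionine and damages the liver. The OGT-KO label stands for AAV8-TBG-CRE, a virus in which the hepatocyte promoter TBG drives Cre, and the control label for AAV8-TBG-eGFP. Tissue was collected either without recovery or 7 days after the diet. Each of these 4 conditions was 1 library of equally pooled RNA from 3 mice, so no spread between mice could be measured, and the conditions were not tested against each other. The age and sex of the mice are not given in the sources used here.

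SR proteins bind exonic enhancers in pre-mRNA through RNA-recognition motifs and recruit the U1 particle and U2AF to nearby splice sites through arginine- and serine-rich tails. hnRNPs coat nascent transcripts, and many of them repress splice sites, so that the balance between both families sets which exons are kept. CLK kinases phosphorylate the serines of SR proteins in the nucleus and release them from nuclear speckles. Many genes of these families limit their own output through a poison exon or a retained intron, which sends the transcript to nonsense-mediated decay or holds it in the nucleus. O-GlcNAc, the sugar that OGT adds to serine and threonine and OGA removes, is found on many nuclear proteins.

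The promoters of the members with the largest and the smallest mean label differences (log2 level in the library labelled OGT-KO minus that in the control library) in the SR and hnRNP families are shown here, each as the 250 bases before the gene start, so that the motifs of members at either end of the range can be read side by side. They come from RefSeq on GRCm38.p6, which is not the build named for the deposited table (GRCm39), and are printed along the strand of the gene. The Hnrnpa1 window lies at chr15:103240147-103240396 (plus strand), the Srsf3 window at chr17:29032410-29032659 (plus strand), the Srsf5 window at chr12:80945249-80945498 (plus strand) and the Hnrnph3 window at chr10:63023850-63024099 (minus strand). Capitals mark matches on either strand to a CCAAT box (CCAAT), a GC box (GGGCGG), an ETS core (CGGAAG) or a CRE-type core (TGACGT).
Hnrnpa1: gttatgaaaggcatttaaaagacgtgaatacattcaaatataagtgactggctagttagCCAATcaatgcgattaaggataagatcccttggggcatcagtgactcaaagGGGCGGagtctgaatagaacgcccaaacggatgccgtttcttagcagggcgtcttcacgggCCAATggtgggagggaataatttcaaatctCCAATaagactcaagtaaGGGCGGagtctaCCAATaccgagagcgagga
Srsf3: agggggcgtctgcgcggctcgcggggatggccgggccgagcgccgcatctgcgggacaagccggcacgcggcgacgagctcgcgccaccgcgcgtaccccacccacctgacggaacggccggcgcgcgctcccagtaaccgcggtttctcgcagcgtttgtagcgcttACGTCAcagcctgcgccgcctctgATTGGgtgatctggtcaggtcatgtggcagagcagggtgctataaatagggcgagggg
Srsf5: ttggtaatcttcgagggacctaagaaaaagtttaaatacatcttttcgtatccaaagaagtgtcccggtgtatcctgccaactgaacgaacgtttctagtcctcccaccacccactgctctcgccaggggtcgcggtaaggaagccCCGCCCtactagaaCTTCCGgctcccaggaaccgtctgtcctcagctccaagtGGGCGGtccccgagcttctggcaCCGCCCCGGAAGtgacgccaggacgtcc
Hnrnph3: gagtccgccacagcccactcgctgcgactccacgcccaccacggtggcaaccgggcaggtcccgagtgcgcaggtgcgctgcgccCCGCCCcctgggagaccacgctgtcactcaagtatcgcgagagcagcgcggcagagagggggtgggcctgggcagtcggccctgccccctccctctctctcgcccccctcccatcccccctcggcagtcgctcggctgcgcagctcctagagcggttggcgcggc
The Hnrnpa1 window held 4 CCAAT boxes and 2 GC boxes. The Srsf3 window held 1 CCAAT box and 1 CRE-type core. The Srsf5 window held 3 GC boxes and 2 ETS cores, the last of each lying end to end. The Hnrnph3 window held 1 GC box. Other members differed from these 4: Hnrnph2, near the low end, held 3 CCAAT boxes and Srsf7, near the high end, held 0. Whether the letters follow the label difference was not tested.

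Promoter windows were found for 31 of the 34 members (43 windows, since a gene can have several starts), and none is given for Clk1, Hnrnpll and Hnrnpul2. A GC box was present in 81.4% of the member windows, 59.0% of the 9223 windows of compared genes and 32.7% of all 32851 windows. A CCAAT box was present in 48.8%, 34.5% and 33.8% of the same 3 sets, an ETS core in 37.2%, 25.8% and 13.6%, and a CRE-type core in 20.9%, 9.76% and 6.47%. All 4 letter patterns were thus more frequent in member windows than in windows of compared genes. These shares describe letters in the reference sequence and were not tested.

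The targeted gene was checked first. Ogt was at 64.7 CPM in the control library and 55.3 CPM in that labelled OGT-KO with no recovery, and at 55.7 and 77.7 CPM after 7 days. The one labelled OGT-KO was therefore lower in Ogt with no recovery and higher after 7 days at equal library totals, against its label at 7 days, while the log2 differences were -0.69 and -0.01 with upper-quartile scaling and -0.93 and -0.20 with median-ratio scaling. The part of the gene that the loxP sites enclose is not given in the sources used here, so reads outside it would check nothing. Oga, which removes the sugar, was below control at both times under all 3 scalings, with 57.7 and 46.5 CPM with no recovery and 70.2 and 57.0 CPM after 7 days.

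The 4 libraries held 19972699 to 22866431 reads on the listed genes, so that 3 reads correspond to 0.131 to 0.150 CPM, far below the least abundant member. Liver cell markers differed strongly between the labels. The 5 compared macrophage markers, 7 stellate and myofibroblast markers, 5 bile duct markers and 7 proliferation markers were all at least 2-fold above control at both times where the label was OGT-KO. Summed stellate and myofibroblast markers went from 126 to 2928 CPM with no recovery and from 92.2 to 3767 CPM after 7 days, and summed macrophage markers from 204 to 818 CPM and from 76.3 to 663 CPM. The same sums for proliferation markers went from 34.3 to 224 CPM and from 37.8 to 439 CPM, and for bile duct markers from 53.7 to 1148 CPM and from 69.6 to 1457 CPM. Summed endothelial markers went from 176 to 317 CPM and from 125 to 231 CPM. Of these 6, 3 and 1 were at least 2-fold higher, against 24.4% and 22.9% of all compared genes. Of 6 lymphocyte and leukocyte markers only Ptprc passed the filter, and the list summed to 7.81 and 38.7 CPM with no recovery and 3.65 and 34.6 CPM after 7 days. The 8 hepatocyte markers had medians of -1.11 and -0.68 on the log2 scale, with sums of 83566 and 59080 CPM with no recovery and 93234 and 72012 CPM after 7 days. They were not uniform: 4 and 3 were at least 2-fold lower, against 5.69% and 4.27% of all compared genes. Alb was at -0.21 and -0.08, and Cyp3a11 was above control at 0.07 and 0.28. No marker in the table was at 0 in any library. SR proteins, hnRNPs and CLKs are made in all of these cell types, and the part of cell makeup in the differences below was not tested. In bulk RNA, fewer cells of a type and less RNA per cell cannot be told apart.

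As a group, the members took more of the library labelled OGT-KO than of the control library, at both times. Together they were at 2971 CPM in the control library and 4579 CPM in that labelled OGT-KO with no recovery, and at 3106 and 4540 CPM after 7 days. As shares of all reads these were 0.297%, 0.458%, 0.311% and 0.454%. The SR genes summed to 752 and 1143 CPM with no recovery and 849 and 1091 CPM after 7 days. The hnRNP genes, the bulk of the group, summed to 2043 and 3205 CPM and to 2095 and 3241 CPM. The CLK genes, the kinases of the system, summed to 176 and 231 CPM and to 163 and 208 CPM. In each family both libraries labelled OGT-KO were above both control libraries at equal totals.

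The median over all compared genes shifted the same way, and the sign of the shift depended on how the libraries were scaled. At equal totals 6780 of the 8963 compared genes were above control with no recovery and 7040 after 7 days, while 510 and 383 were at least 2-fold lower. Differences were taken as log2(CPM + 1) in the library labelled OGT-KO minus the control library, a scale that slightly understates the change of low genes. The members' median difference was 0.58 with no recovery and 0.52 after 7 days, while the median over all 8963 compared genes was 0.51 and 0.48. Relative to that shift of all genes, the members' medians were 0.07 and 0.04. This remainder depended on the filter, being 0.35 and 0.23 beside genes with a mean of 50 CPM or more and -0.07 and -0.09 with no filter. With upper-quartile scaling the all-gene medians became 0.04 and 0.01 and the members' medians 0.11 and 0.04. With median-ratio scaling both were negative, at -0.19 and -0.18 for all genes and -0.12 and -0.15 for the members. Of the 34 members, 33 were above control at either time at equal totals, 21 at either time with upper-quartile scaling, and 8 with no recovery and 9 after 7 days with median-ratio scaling. The 2 label comparisons share no library.

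**Figure D1:**
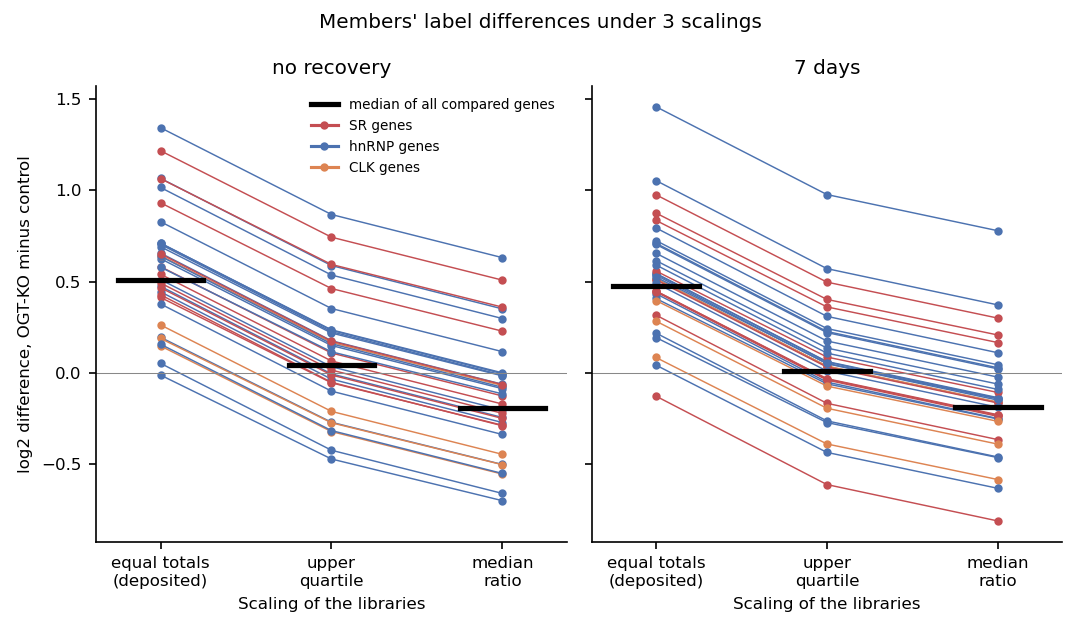
Differences of log2(CPM + 1) between the library labelled OGT-KO and the control library for the 34 members (lines, coloured by family) with no recovery (left) and after 7 days (right), under 3 scalings of the libraries on the horizontal axis, with the median of all 8963 compared genes as black bars. The members lie around the all-gene median in every scaling, which falls from 0.51 to 0.04 and -0.19 with no recovery and from 0.48 to 0.01 and -0.18 after 7 days, so that most members change sign under median-ratio scaling.

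The plot of member differences under the 3 scalings shows that the order of the genes hardly moved while their sign did. Calls were made at a 2-fold difference at equal totals. With no recovery 5 members (14.7%) were at least 2-fold higher in the library labelled OGT-KO, against 24.4% of all compared genes, and 0 were 2-fold lower, against 5.69%. After 7 days 2 members (5.88%) were 2-fold higher, against 22.9%, and 0 were lower, against 4.27%. At 1.5-fold, 16 members (47.1%) were higher with no recovery against 45.5% of all genes, and 12 (35.3%) after 7 days against 43%. None of the members was 1.5-fold lower at either time, against 10.1% and 7.52% of all genes. With the 10 CPM filter the members' share of 2-fold calls was thus below that of all genes at both times. Among genes with a mean of 50 CPM or more, 4 and 2 members were called higher. There 525 and 503 of 3220 genes were called higher, a smaller share of all genes than at 10 CPM. With that filter the members' share was close to that of all genes with no recovery and below it after 7 days. With upper-quartile or median-ratio scaling 0 members were called higher at either time.

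Separation of the labels was also counted at both times together. In 32 members (94.1%) both libraries labelled OGT-KO were above both control libraries at equal totals, against 70% of all compared genes, and in 0 members both were below, against 16.6%. The exceptions were Srsf5 and Hnrnph3. This count depended on the scaling, since 13 members (38.2%) were above and 6 (17.6%) below with upper-quartile scaling, against 41.1% and 38.6% of all compared genes. With median-ratio scaling 6 (17.6%) were above and 20 (58.8%) below, against 29.5% and 51.5%. The 6 members above under all 3 scalings were Hnrnpa1, Srsf3, Hnrnph1, Srsf7, Hnrnpab and Srsf10. The 6 that were below under both other scalings were Srsf5, Hnrnph2, Hnrnph3, Hnrnpul2, Clk3 and Clk4.

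**Figure D2:**
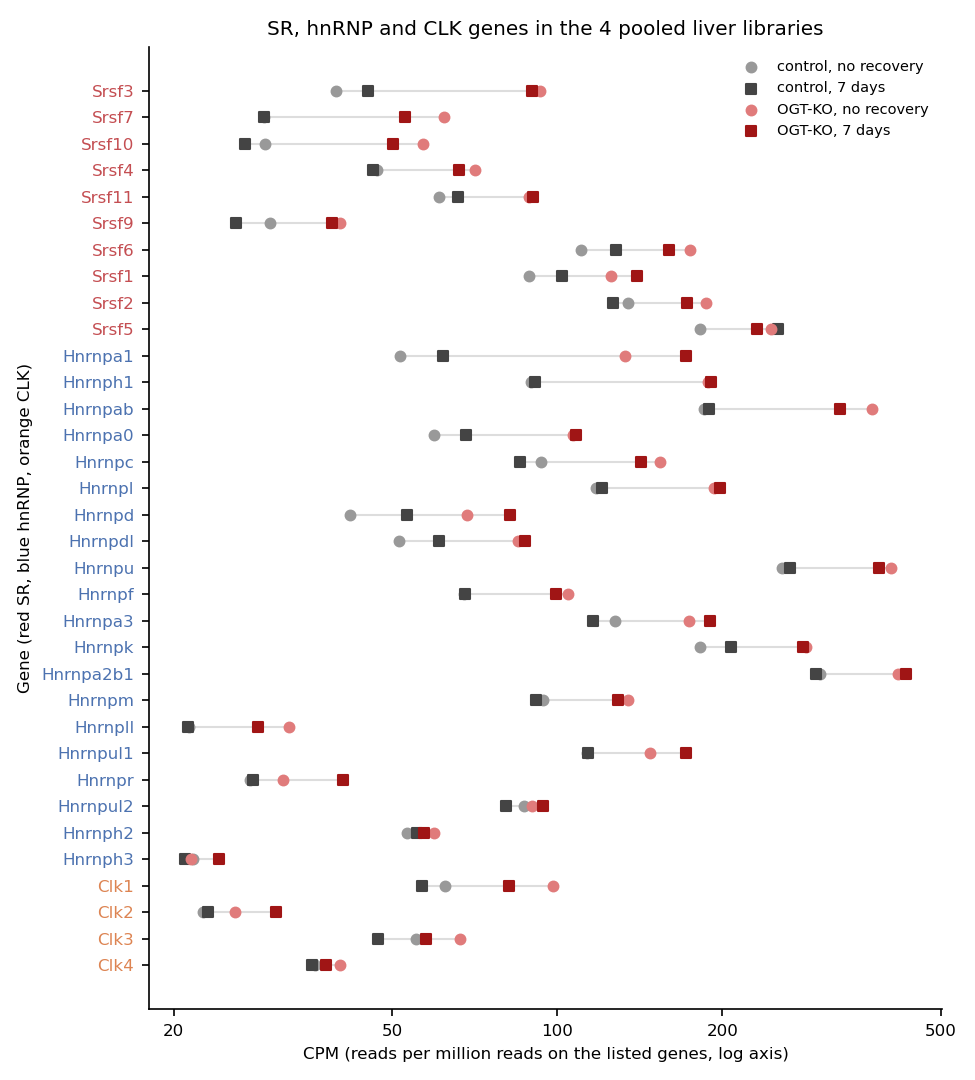
CPM of each of the 34 members (rows, ordered by family and by label difference) in the 4 pooled libraries on a log axis, with control libraries in grey and black and libraries labelled OGT-KO in pale and dark red. At equal totals both red points lie to the right of both grey or black points in 32 rows, the exceptions being Srsf5 and Hnrnph3, while with median-ratio scaling only 6 members keep that order.

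Hnrnpa1 (ENSMUSG00000046434) had the largest label difference of the 34 members at both times. It encodes an RNA-binding protein that represses exon inclusion and shuttles between nucleus and cytoplasm. Its level was 51.8 CPM in the control library and 133 CPM in that labelled OGT-KO with no recovery, and 61.9 and 172 CPM after 7 days. Both libraries labelled OGT-KO were more than 2-fold above both control libraries. The log2 differences were 1.34 and 1.46, with 95% counting intervals of the log2 ratio from 1.26 to 1.46 and from 1.38 to 1.57, and 0.63 and 0.78 with median-ratio scaling. These intervals, exact binomial here and below, cover counting error only. Hnrnpa1 was higher in difference than 84.4% and 86.5% of all compared genes. Of its 50-base stretches, 46.7% also occur in transcripts of 20 other genes in the GENCODE M21 annotation, and how such reads were assigned is not given in the sources used here.

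Srsf3 (ENSMUSG00000071172), the smallest classical SR protein and a regulator of its own poison exon, stood highest in the SR family. It was at 39.5 CPM in the control library and 93.02 CPM in that labelled OGT-KO with no recovery, and at 45.2 and 89.9 CPM after 7 days. Both libraries labelled OGT-KO lay above both control libraries, as in 70% of all compared genes at equal totals. The log2 differences were 1.22 (counting interval of the log2 ratio 1.12 to 1.35) and 0.98 (0.88 to 1.11), and 0.51 and 0.30 with median-ratio scaling. Of the 10 annotated Srsf3 transcripts, 2 are marked for nonsense-mediated decay and 4 as retained introns, and the gene-level CPM pools them with the coding ones. Of its 50-base stretches, 31.5% are shared with 5 other genes.

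Srsf7 (ENSMUSG00000024097), an SR protein with a zinc knuckle that also has a poison exon, followed Srsf3. Its 4 values were 29.2 CPM (control) and 62.1 CPM (labelled OGT-KO) with no recovery and 29.2 and 52.9 CPM after 7 days. Control livers held the same Srsf7 level at both times, and the library labelled OGT-KO was above it at both. The log2 differences were 1.06 and 0.84, and 0.36 and 0.17 with median-ratio scaling. Only 0.787% of its 50-base stretches are shared with another gene. Srsf10 (ENSMUSG00000028676), an SR-like protein that acts as a splicing repressor when dephosphorylated, was at 29.4 and 56.9 CPM with no recovery and at 26.9 and 50.2 CPM after 7 days. It missed the 2-fold call, with log2 differences of 0.93 and 0.88, and kept its sign with median-ratio scaling at 0.23 and 0.21.

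Among the other classical SR genes the differences were smaller and lost their sign with scaling. Srsf6 was at 111 and 174 CPM with no recovery and 128 and 160 CPM after 7 days, log2 differences of 0.65 and 0.32. Srsf1, which promotes exon inclusion, gave 0.49 and 0.45, and Srsf2, a speckle component, gave 0.47 and 0.44. Srsf4 gave 0.58 and 0.51 and Srsf9 gave 0.41 and 0.56. Srsf4 had the largest share of 50-base stretches found in other genes of all 34 members, at 65.4%, and Srsf2 had 31.8%. Except for Srsf3 and Srsf7, every classical SR gene was at or below 0 at both times with median-ratio scaling. The 8 classical SR genes had medians of 0.54 and 0.48 at equal totals, near the all-gene 0.51 and 0.48. Srsf11, the other SR-like gene, was at 60.9 and 89.0 CPM and at 65.9 and 90.3 CPM, log2 differences of 0.54 and 0.45 at equal totals that fell below 0 with median-ratio scaling (-0.17 and -0.23).

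Srsf5 (ENSMUSG00000021134) was the most abundant SR gene and the one that departed from the rest. It was at 182 CPM in the control library and 245 CPM in that labelled OGT-KO with no recovery, and at 253 and 231 CPM after 7 days. The control library was thus the lower of the pair with no recovery and the higher of the pair after 7 days. The log2 differences were 0.43 (counting interval 0.37 to 0.49) and -0.13 (-0.18 to -0.07), and both were negative with median-ratio scaling, at -0.29 and -0.81. Between the times Srsf5 differed by 0.47 in the control libraries, above 97.9% of compared genes, and by -0.08 in those labelled OGT-KO. Of its 50-base stretches, 23.6% are shared with 1 other gene.

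The hnRNP A, B and D group, which holds the core proteins of hnRNP particles, had the highest medians of the larger hnRNP groups, at 0.71 with no recovery and 0.66 after 7 days for 7 genes. Hnrnpab (ENSMUSG00000020358), the member with the highest level per length, was at 185 and 374 CPM with no recovery and at 189 and 328 CPM after 7 days. Both libraries labelled OGT-KO lay above both controls at equal totals, as in 70% of all compared genes. Its log2 differences were 1.02 and 0.79, with 0.30 and 0.11 under median-ratio scaling. Of its 50-base stretches, 23.8% are shared with 3 other genes. Hnrnpa2b1, a paralog of Hnrnpa1 and the most abundant member in CPM, was at 301 and 418 CPM and at 296 and 432 CPM, log2 differences of 0.47 and 0.55 that fell below 0 with median-ratio scaling. Hnrnpa3 was at 127 and 174 CPM and at 116 and 190 CPM, which again put both libraries labelled OGT-KO above both controls at equal totals. Of its 50-base stretches, 27.7% are shared with 46 other genes. The remaining genes of this group, Hnrnpa0, Hnrnpd and Hnrnpdl, lay between 0.52 and 0.83 at both times. Hnrnpd, also called AUF1 and known for binding AU-rich mRNAs, was at 42.0 and 68.4 CPM with no recovery and at 53.2 and 82.1 CPM after 7 days.

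The hnRNP F and H group, whose proteins bind G-rich runs, was the least uniform. Hnrnph1 (ENSMUSG00000007850) was at 89.4 CPM in the control library and 188 CPM in that labelled OGT-KO with no recovery, and at 91.2 and 190.3 CPM after 7 days. Each label held nearly the same level at both times, and the labels were 2-fold apart, with log2 differences of 1.07 and 1.05 and of 0.35 and 0.37 under median-ratio scaling. Its paralog Hnrnph2 was at 53.3 and 59.5 CPM and at 55.5 and 57.3 CPM, log2 differences of 0.16 and 0.04. Hnrnph3 was at 21.7 and 21.6 CPM and at 20.98 and 24.1 CPM, the smallest mean label difference of all 34 members. Both lay well under the shift of all genes, and both were negative under the other scalings. Hnrnpf was at 67.6 and 105 CPM and at 67.8 and 99.3 CPM, with 61.9% of its 50-base stretches shared with 11 genes.

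Hnrnpc, which measures the length of unspliced RNA and binds U-rich tracts, was at 93.6 and 154 CPM with no recovery and at 85.7 and 142 CPM after 7 days. Its log2 differences of 0.71 and 0.72 became about 0 with median-ratio scaling. In the group of hnRNP K, L, M and R, Hnrnpk, a poly(C)-binding protein, was the most abundant, at 182 and 284 CPM and at 208 and 281 CPM. Hnrnpl, which binds CA repeats, had the largest differences there, with 118 and 193 CPM and 121 and 198.03 CPM. Hnrnpr had the smallest mean difference over both times, with 27.5 and 31.7 CPM and 27.9 and 40.6 CPM. At equal totals its log2 difference was the smallest of the group with no recovery (0.20) but not after 7 days (0.52), both negative with median-ratio scaling (-0.50 and -0.14). Hnrnpm gave 0.51 and 0.49 and Hnrnpll gave 0.58 and 0.41. In the U group, Hnrnpu, a scaffold protein that binds RNA and chromatin, was at 256 and 405 CPM and at 266 and 386 CPM. Hnrnpul1 gave 0.38 and 0.59, and Hnrnpul2 was at 86.8 and 90.1 CPM and at 80.8 and 94.2 CPM.

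The CLK kinases had lower median label differences than the SR genes, whose products they phosphorylate, and than the hnRNP genes. Clk1, whose own transcript is held in the nucleus through retained introns, was at 62.6 CPM in the control library and 98.2 CPM in that labelled OGT-KO with no recovery, and at 56.7 and 81.5 CPM after 7 days. Its log2 differences of 0.64 and 0.52 were close to the all-gene median and turned negative with median-ratio scaling (-0.07 and -0.16). Clk2 was at 22.6 and 25.9 CPM and at 23.1 and 30.7 CPM. Clk3 was at 55.2 and 66.4 CPM and at 47.2 and 57.6 CPM, with both labels lower after 7 days, and 31.7% of its 50-base stretches are shared with 2 other genes. Clk4, the closest relative of Clk1, was at 36.1 and 40.1 CPM and at 35.7 and 37.9 CPM, and its counting interval after 7 days included 0. The medians of the 4 CLK genes were 0.23 and 0.34 at equal totals, and 1 of 4 was above the all-gene median at either time, compared with 6 and 5 of 10 SR genes and 13 and 15 of 20 hnRNP genes. With both other scalings the CLK medians were negative at both times (-0.24 and -0.13, and -0.47 and -0.33). Of the annotated transcripts, 7 of 13 for Clk1 and 7 of 14 for Clk4 are retained introns, so a gene-level value cannot tell the coding mRNA from the retained form.

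**Figure D3:**
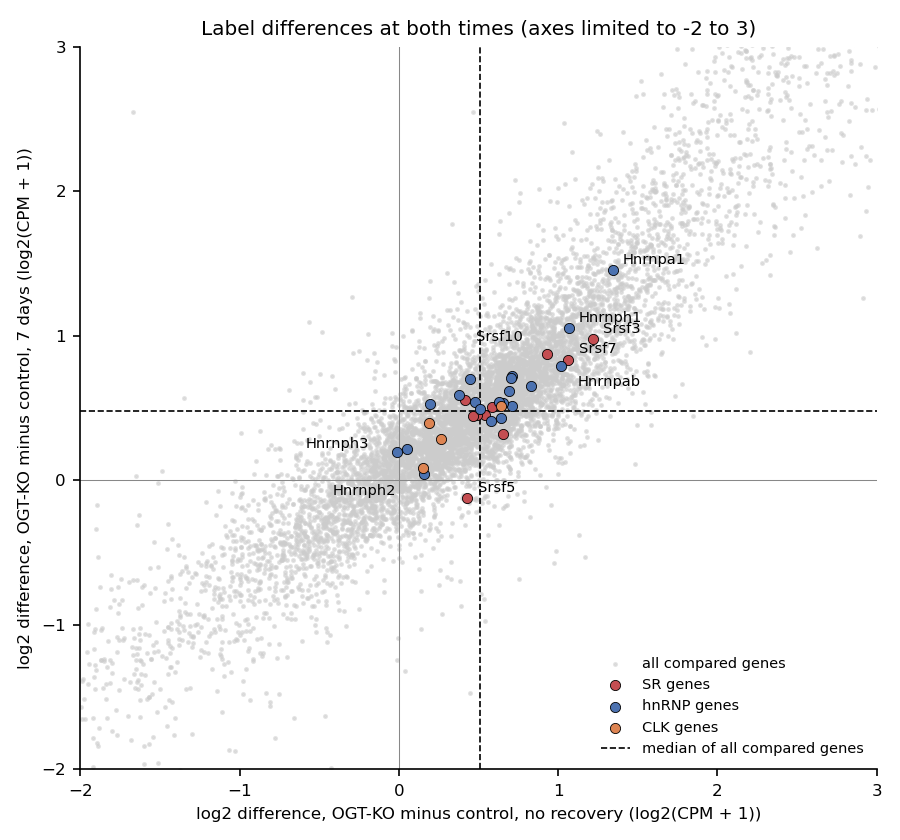
Difference of log2(CPM + 1) between the library labelled OGT-KO and the control library with no recovery (horizontal) and after 7 days (vertical) for all compared genes (grey) and the SR (red), hnRNP (blue) and CLK (orange) members at equal totals, with dashed lines at the all-gene medians of 0.51 and 0.48. Among the 34 members Hnrnpa1 lies farthest to the upper right at 1.34 and 1.46 and Srsf5 lies below 0 on the vertical axis at -0.13, and with median-ratio scaling only 6 members stay above 0 on both axes.

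The differences at both times ranked the members alike. Over the 34 members the label differences with no recovery and after 7 days had a Pearson r of 0.83 and a Spearman rho of 0.77, given as a description over genes that share the 4 libraries. With the mean level of the gene (log2 CPM) the mean label difference had r of 0.22 and rho of 0.26, and with merged exon length a rho of -0.10. In the plot of both label differences the members lie within the cloud of all genes. Hnrnpa1 lies farthest to the upper right, and Srsf5 is the only member below 0 after 7 days.

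Ratios of reads between 2 genes in one library do not depend on the scaling, so they were taken for 7 pairs of members that were chosen after their values were seen. Hnrnpa1 reads per Hnrnpa2b1 read were 0.172 and 0.318 with no recovery and 0.209 and 0.398 after 7 days, control library first. Hnrnph1 reads per Hnrnph2 read were 1.68 and 3.16, and 1.64 and 3.32. Per Hnrnph3 read, Hnrnph1 gave 4.11 and 8.73, and 4.35 and 7.88. Within both paralog families the gene with the larger difference therefore made up more of the pair in each library labelled OGT-KO, with counting intervals that did not overlap those of the control libraries. Srsf3 reads per Srsf5 read were 0.217 and 0.379, and 0.179 and 0.388. Srsf7 reads per Srsf5 read were 0.160 and 0.253, and 0.116 and 0.228. Clk1 reads per Clk4 read were 1.73 and 2.45, and 1.59 and 2.15. These 6 ratios separated by label at both times. Their direction followed from the choice of pairs, since each set a member with a larger mean label difference over one with a smaller. They are therefore no further support for the differences above. The ratio of Srsf1 to Srsf2 did not, at 0.658 and 0.671 with no recovery and 0.810 and 0.812 after 7 days, where the times differed and the labels lay within each other's counting intervals.

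**Figure D4:**
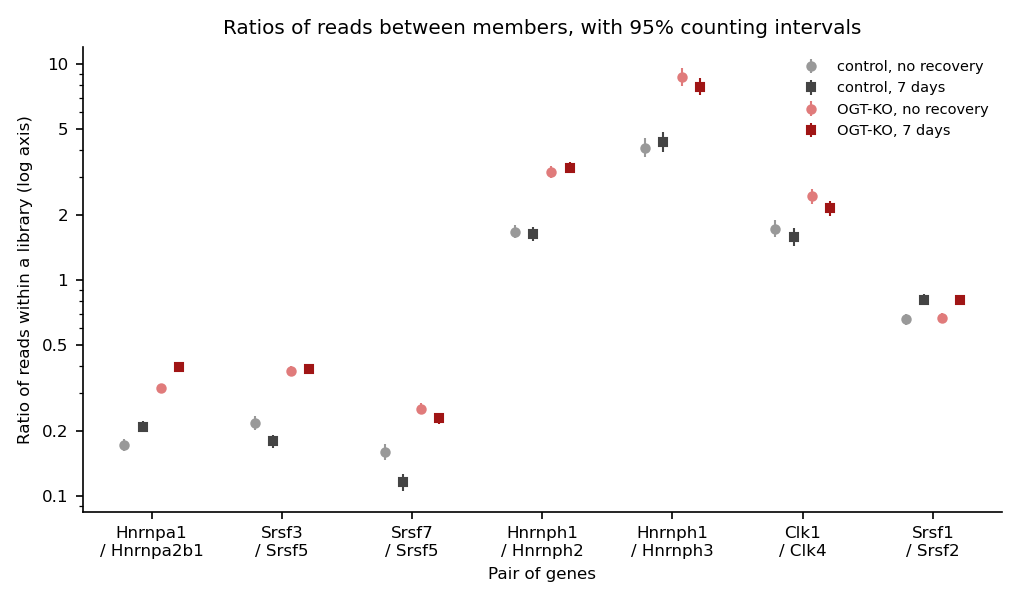
Ratio of reads between 2 members within each of the 4 libraries, on a log axis, with 95% exact counting intervals as bars, for 7 pairs chosen after their values were seen. In 6 pairs both libraries labelled OGT-KO (reds) lie above both control libraries (grey and black), and in the pair Srsf1 and Srsf2 the points group by time, at 0.658 and 0.671 with no recovery and 0.810 and 0.812 after 7 days.

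Levels between genes were compared per kilobase of merged exon. As a mean of the 4 libraries, Hnrnpab was highest at 96.7 CPM per kb, followed by Srsf5 at 57.1, Hnrnpa2b1 at 54.9, Srsf2 at 52.4 and Hnrnpk at 36.9 CPM per kb. Hnrnpa1 was sixth at 33.2 CPM per kb. The CLK genes were low on this scale, with Clk1 at 9.19, Clk3 at 6.70, Clk4 at 6.46 and Clk2 at 4.82 CPM per kb. The lowest members were Hnrnpll at 2.22 and Hnrnpr at 1.44 CPM per kb. These lengths count every annotated exon, so genes with long alternative exons are understated.

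Differences between the times were taken within each label. From no recovery to 7 days, 0 members passed 2-fold in the control libraries, against 0.245% of all compared genes higher and 0.96% lower, and 0 in the libraries labelled OGT-KO, against 1.04% higher and 0.435% lower. At 1.5-fold it was again 0 members in either direction, against 1.22% higher and 4.06% lower in the controls and 4.17% higher and 2.33% lower in their OGT-KO counterparts. The members' medians were 0.01 in the controls and -0.05 in the libraries labelled OGT-KO at equal totals, and the second became 0.02 with median-ratio scaling. These were smaller than the label medians of 0.58 and 0.52 at equal totals, but with upper-quartile scaling the control value of 0.06 lay between the label medians of 0.11 and 0.04, and 0 members were called for either label or time. After Srsf5 at 0.47, the largest differences in the controls were those of Hnrnpd (0.33), Hnrnpa1 (0.25) and Hnrnpdl (0.24), and the lowest was Clk3 (-0.22). In the libraries labelled OGT-KO, Hnrnpa1 (0.37) and Hnrnpr (0.35) were the highest and Clk1 (-0.27) the lowest. Macrophage markers moved with time in the same control libraries, with 5 of 5 at least 2-fold lower after 7 days.

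The factors that act with these families had medians above 0 at equal totals, as the set of all compared genes did. The 9 lists of other splicing and decay genes held 97 genes, of which 86 passed the filter. Of these, 14 were at least 2-fold higher than control with no recovery and 5 after 7 days, against 24.4% and 22.9% of all compared genes, and 0 were lower, against 5.69% and 4.27%. With the 10 CPM filter the calls were thus a smaller share than those of all genes, while the medians of 0.66 and 0.54 lay above the all-gene 0.51 and 0.48. With median-ratio scaling the medians turned to -0.04 and -0.13. From no recovery to 7 days 0 of the 86 genes passed 2-fold in either label.

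The cytoplasmic kinases that load SR proteins for nuclear import are SRPK1 and SRPK2. Srpk1 was at 31.7 and 64.3 CPM with no recovery and at 30.8 and 55.4 CPM after 7 days. Srpk2 was at 20.9 and 45.0 CPM and at 23.3 and 40.5 CPM. Their log2 differences were 0.998 and 0.83 for Srpk1 and 1.07 and 0.77 for Srpk2, and all 4 values stayed above 0 with median-ratio scaling. Tnpo3, the import receptor of SR proteins, gave 0.63 and 0.65 and the kinase Dyrk1a 0.62 and 0.63, both near 0 with median-ratio scaling. The list of 6 compared kinases and the import receptor had 1 and 0 genes called higher, against 24.4% and 22.9% of all compared genes. Its medians were 0.63 and 0.64. At either time 5 of the 6 were above control, and the lowest values were -0.37 and -0.42.

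Among 9 SR-related genes, Tra2a gave 0.98 and 1.25 and Tra2b 0.98 and 0.90, both splicing activators with SR-like tails, and Rnps1 gave 0.84 and 0.76 and Acin1 0.81 and 0.66, components that join the exon junction complex. Of this list 0 and 1 were called, with medians of 0.81 and 0.66. For this list and the next, the all-gene shares were 24.4% and 22.9%. In 16 other hnRNP-like genes, Rbmx gave 1.05 and 0.83, Ptbp3 0.83 and 0.90 and the polypyrimidine tract repressor Ptbp1 0.82 and 0.72, and 2 and 0 genes of this list were called. Its medians of 0.53 and 0.49 lay at the all-gene value. Except for Acin1 after 7 days (-0.02), these named genes stayed above 0 with median-ratio scaling at both times.

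For the core machinery, the counts below are to be read against the 24.4% and 22.9% of all compared genes called higher. Of 14 genes of branch point and acceptor site recognition, 4 were called higher with no recovery and 0 after 7 days, among them Sf3b3 (1.21 and 0.998) and Sf3a1 (1.11 and 0.61). U2af2, the subunit of U2AF that binds the polypyrimidine tract, gave 0.997 and 0.84 and Sf3b1 gave 0.83 and 0.80. In the list of 9 U1 and U1-associated genes, Tia1, which helps U1 bind weak donor sites, gave 1.47 and 1.57 and Snrpc 1.67 and 1.24, the 2 genes called at both times, while Luc7l3 gave 0.59 and 0.75 and Luc7l 0.78 and 0.53. Of 7 Sm core genes, 2 and 1 were called, with Snrpd1 at 1.22 and 1.24, Snrpe at 1.34 and 0.98, Snrpf at 0.84 and 0.98 and Snrpg at 0.78 and 0.69. Of 9 U5 and tri-snRNP genes, 2 and 1 were called, with the GTPase Eftud2 at 1.38 and 1.22, Prpf31 at 1.16 and 0.87, Prpf4 at 0.80 and 0.96 and Snrnp40 at 0.79 and 0.82. The named genes are those with the largest differences. In the U1 list and in the U5 and tri-snRNP list, 8 of 9 genes were above control at either time. The lowest values were -0.09 and -0.27 for U1 and -0.30 and -0.21 for U5 and the tri-snRNP. The medians with no recovery and after 7 days were 0.78 and 0.50 for acceptor site recognition, 0.53 and 0.47 for U1, 0.78 and 0.69 for the Sm core and 0.73 and 0.82 for U5 and the tri-snRNP. With median-ratio scaling the U1 medians were negative at both times and that of acceptor site recognition after 7 days, while those of the Sm core and of U5 and the tri-snRNP stayed above 0.

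Nonsense-mediated decay genes, which clear the poison-exon transcripts of the SR family, were near the median of all genes. Of 10 genes 1 was called with no recovery and 0 after 7 days, against 24.4% and 22.9% of all compared genes, with medians of 0.51 and 0.56. Smg1, the kinase of UPF1, gave 1.07 and 0.69, Smg8 gave 0.70 and 0.95, Smg5 gave 0.76 and 0.64 and the helicase Upf1 itself 0.74 and 0.57. Of 15 listed tissue-restricted splicing regulators, 6 passed the filter and 0 were called, with medians of 0.60 at both times. Among them, Mbnl2 gave 0.90 and 0.85, Rbfox2 0.81 and 0.93 and Celf2 0.67 and 0.74. The list also held Slu7, a general late-step splicing factor and not a tissue-restricted one, at 0.54 and 0.33. The medians of both lists were below 0 with median-ratio scaling.

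**Figure D5:**
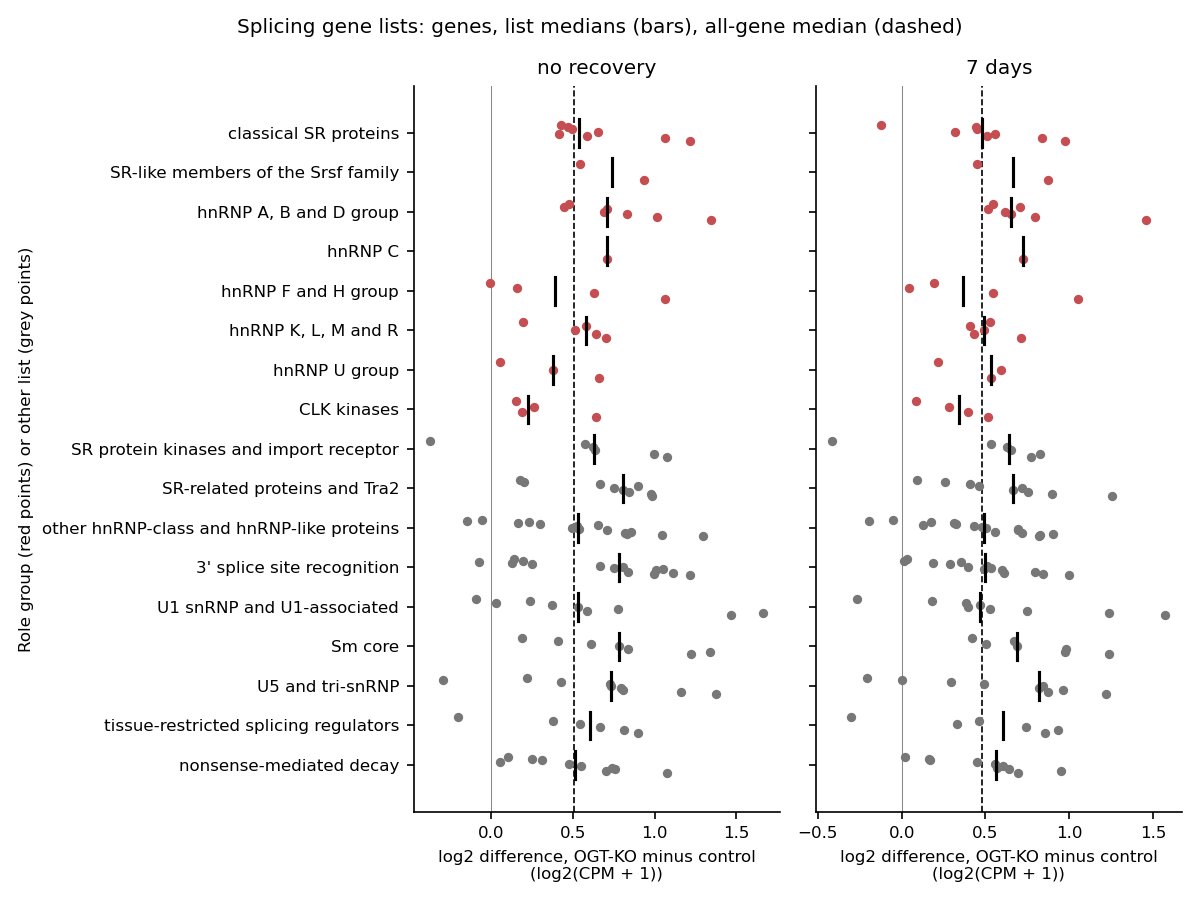
Difference of log2(CPM + 1) between the library labelled OGT-KO and the control library for the genes (points) of the 8 role groups of members (red) and of the 9 other splicing and decay lists (grey) with no recovery (left) and after 7 days (right), with list medians as black bars and the all-gene median dashed, at equal totals. The CLK, hnRNP U and F and H medians of 0.23, 0.38 and 0.39 with no recovery lie left of the dashed line at 0.51. After 7 days the CLK and F and H medians of 0.34 and 0.37 lie left of the line at 0.48 and the hnRNP U median of 0.54 right of it. With median-ratio scaling the line itself moves below 0 at both times.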

How the data were processed

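Libraries were made from polyadenylated RNA of whole liver with the Tecan Universal Plus mRNA-seq kit. The authors deposited CPM, and each of the 4 columns sums to 1000000. The submitters' processing notes name STAR, DESeq2 and GRCm39 without versions; counter, annotation, strand and treatment of multiply mapped reads are not given in the sources used here. Of the values, 100% were whole multiples of 1 read within 0.01 read, so whole reads were recovered for counting intervals (Clopper-Pearson, 95%). From the deposited CPM, differences of log2(CPM + 1) were computed for the genes whose mean over the libraries reached 10 CPM, with calls at 2-fold and, as a second rule, 1.5-fold. With 1 library per condition, no test between conditions was made; a fit with label and time as additive terms was not run. Libraries were also scaled by upper quartile and by median ratio. Both factors were taken without the 10 CPM filter, the median ratio over genes above 0 in all 4 libraries.

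Values in every library were given for members called in any comparison, for the most abundant, highest and lowest member of each role group and for all CLKs; up to 4 genes with the largest mean label difference were named per other list. A gene that this rule would name is not reported here. The members and lists were chosen with earlier results of these data known. Merged exon lengths, transcript types and shared 50-base stretches were taken from GENCODE M21 (GRCm38), found for all 34 members. Srsf12 was listed but is not in the table used. Scripts (Python 3.11.15, pandas 2.3.3, scipy 1.17.1) were tested on simulated data.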

Additional observations from a re-analysis of the deposited data

Results flagged for a closer look

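Srsf5 was the one member whose label difference had opposite signs at both times with each counting interval leaving out 0. Its log2 difference after 7 days minus that with no recovery was -0.55. With 1 library per condition the difference between the times was not tested. The sign change held at equal totals only: both label differences were negative with upper-quartile scaling and with median-ratio scaling, the latter at -0.29 and -0.81.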

How the results depend on the processing

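For the members' calls and medians 8 alternatives were run. With a pseudocount of 0.1 CPM, no filter on low values, a mean of at least 50 CPM, or an exact binomial test on recovered reads added to the 2-fold call, every count and median tried stayed within its limits. With a pseudocount of 10 CPM, 2 members were called higher with no recovery and 1 after 7 days, against 5 and 2. The calls of all genes fell as well, to 1367 and 1344 of 8963, against 2185 and 2050. At 1.5-fold 16 and 12 members were called higher, against 45.5% and 43% of all compared genes. With upper-quartile scaling 0 and 0 members were called higher, and the members' median differences were 0.11 and 0.0447. With median-ratio scaling the calls were also 0 and 0 and the members' medians reversed to -0.12 and -0.15, with -0.19 and -0.18 for all compared genes. The calls of all genes moved too, from 2185 higher and 510 lower with no recovery to 1208 and 981 (upper quartile) and 935 and 1381 (median ratio), and from 2050 and 383 after 7 days to 1215 and 740 and 1038 and 1055. The members' median less that of all genes was 0.07 and 0.04, 0.35 and 0.23 with that minimum at 50 CPM, and -0.07 and -0.09 with no filter. The binomial test with Benjamini-Hochberg adjustment, which compares libraries and not conditions, passed 0.05 in 8011 and 7899 of 8963 genes for the labels, and in 32 of 34 members at either time. The 2 label comparisons can be paired by time; that fit was not run.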
